A study of Mus musculus with 16 samples.

Results

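The Hox genes are the homeobox transcription factor genes named Hoxa, Hoxb, Hoxc or Hoxd with a number, and 39 of the 55487 genes counted in these libraries carried such a symbol. They lie in 4 complexes, Hoxa on chromosome 6, Hoxb on chromosome 11, Hoxc on chromosome 15 and Hoxd on chromosome 2, and the number of a gene is its paralog group, from 1 to 13, shared by the gene at the like place in the other complexes. The cells came from spinal cord tissue around the core of a dorsal column lesion at cervical level C5. Libraries had been made from 16 mice, 2 in each of 8 groups. The WT mice were Ryk+/+,GFAPcreERT2 and the cKO mice Rykfl/fl,GFAPcreERT2, so the Cre transgene, driven by a GFAP promoter that acts mainly in astrocytes, was present in both genotypes, and the study's methods state that mice received tamoxifen. Each genotype was sampled uninjured (labelled as sham in GEO) and 1 d, 7 d or 14 d from the lesion on, in mice aged 8 to 10 weeks. The questions here were which paralog groups were counted in which of the authors' 17 clusters, and whether this differed between animals.

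Hox proteins bind DNA through the homeodomain, whose core site is TAAT, and most do so together with cofactor proteins. In the embryo the genes of a complex are switched on in the order in which they lie on the chromosome, low-numbered genes in the hindbrain and neck and higher-numbered genes further towards the tail. The combination gives a segment of the neural tube its identity, for example the motor neuron columns that serve the limbs, and Polycomb and Trithorax group proteins keep genes off or on afterwards. Blood stem and progenitor cells also use Hox genes, with Hoxa9 and Hoxb4 among the best known.

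One library, replicate 2 of WT at 1 d, held 1 cell with 266 UMIs (unique molecular identifiers, each standing for 1 captured transcript) and no Hox UMI, and was left out. The other 15 mice had 208 to 1845 cells, 536263 to 9008729 UMIs and 103 to 2919 Hox UMIs each, with a median depth of 414 to 3637 UMIs per cell. The libraries of replicate 1 of WT at 1 d, cKO at 1 d, WT at 7 d and cKO at 7 d were the shallow ones and stood apart in another way. Any pair of these 4 libraries had 28 to 115 cell barcodes in common, against at most 4 in any other pair, and 92.4% of the shared barcodes lay in the same cluster in both. They held 3.83% of the Hox UMIs, and the main comparisons between clusters below are also given without them. For 6 mice, 5 of them used here, the condition written in the cell names differed from the title, and groups followed the titles. In the cell names, WT uninjured replicate 2 was cKO uninjured, and cKO uninjured replicate 2 was WT at 7 d. Likewise WT 7 d replicate 2 was WT at 1 d, WT 14 d replicate 2 was cKO at 14 d, and cKO 14 d replicate 2 was cKO at 7 d. Which is right is not known, so all values by genotype or injury below rest on the titles. Ryk in astrocytes ranged from 54.0 to 157 UMIs per 1000000 UMIs of the same cells (CPM) in 7 WT mice, median 108, and from 23.0 to 123 CPM in 8 cKO mice, median 87.6, so the genotypes overlapped; these reads come from transcript 3′ ends and may lie outside the deleted part. Forebrain and midbrain genes had 101 UMIs in all over 10 genes, of which Lhx9 had 26 and Lhx2 had 20, whereas Ebf1 and Ebf3, transcription factors found in spinal neurons among other cells, had 34916 and 2001.

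Of the 39 Hox genes, 34 had at least 1 UMI, and 15680 Hox UMIs were counted in all, or 293.9 CPM. At least 1 Hox UMI was seen in 6208 of 18202 cells, which is 34.1%. Counts of 100 or more were reached by 22 genes, 10 to 99 by 7 and 1 to 4 by 5 (Hoxd11 with 4, Hoxb13 with 3, Hoxc13 with 2, and Hoxd10 and Hoxa13 with 1 each). The 5 genes without a UMI were Hoxa11, Hoxc11, Hoxc12, Hoxd12 and Hoxd13, all of groups 11 to 13. The 8 genes with the most UMIs were Hoxb8 (1750), Hoxa7 (1453), Hoxc8 (1403), Hoxb6 (1266), Hoxb3 (1061), Hoxc4 (909), Hoxa5 (901) and Hoxb5 (830). Because 3′ UMIs count transcripts and not bases, these counts need no correction for length, but capture of the 3′ end can differ between genes. For 9 members, exon bases on the same strand are shared with another gene, among them Hoxd3 with Hoxd4 and Hoxc5 with Hoxc10, so their counts are uncertain.

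By paralog group, groups 4 to 8 held 80.5% of all Hox UMIs, groups 1 to 3 held 12.9%, and groups 9 to 13 held 6.56%. Group 8 alone gave 25.3%, group 5 gave 15.2%, group 4 gave 15.1%, group 6 gave 12.8% and group 7 gave 12.1%. Above group 8 the counts dropped: group 9 gave 6.12% and group 10 gave 0.376%. By complex, Hoxb genes gave 44.9%, Hoxc genes 24.8%, Hoxa genes 21.5% and Hoxd genes 8.85%.

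Hoxb4, Hoxb8 and Hoxd8 were the leading members of pericytes, of Cluster 5 astrocytes and of oligodendrocytes, and the 250 bases before the start of each gene (RefSeq, GRCm38.p6, plus strand) show how their promoters differ in letters. Capitals mark each TAAT or its reverse complement ATTA, the homeodomain core. Hoxb4 lies at chr11:96318267-96321638, Hoxb8 at chr11:96281905-96285315 and Hoxd8 at chr2:74704615-74707933.
Hoxb4, chr11:96318017-96318266: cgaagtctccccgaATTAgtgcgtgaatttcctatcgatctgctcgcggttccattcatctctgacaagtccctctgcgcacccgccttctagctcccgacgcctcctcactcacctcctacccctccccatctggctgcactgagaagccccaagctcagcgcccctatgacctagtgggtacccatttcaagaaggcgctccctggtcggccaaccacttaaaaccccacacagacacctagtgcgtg
Hoxb8, chr11:96281655-96281904: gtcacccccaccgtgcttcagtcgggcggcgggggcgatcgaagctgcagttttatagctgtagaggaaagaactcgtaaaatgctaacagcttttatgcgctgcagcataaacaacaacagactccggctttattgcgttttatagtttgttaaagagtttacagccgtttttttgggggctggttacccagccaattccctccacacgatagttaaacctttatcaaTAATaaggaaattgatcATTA
Hoxd8, chr2:74704365-74704614: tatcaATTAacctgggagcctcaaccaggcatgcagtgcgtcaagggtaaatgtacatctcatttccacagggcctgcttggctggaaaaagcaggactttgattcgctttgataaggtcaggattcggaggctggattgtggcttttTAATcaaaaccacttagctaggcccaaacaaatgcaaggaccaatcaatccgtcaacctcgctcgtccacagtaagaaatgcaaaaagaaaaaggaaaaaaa
The window of Hoxb4 held 1 such match and those of Hoxb8 and Hoxd8 held 2 each. The CpG dinucleotides numbered 14 before Hoxb4, 12 before Hoxb8 and 6 before Hoxd8. The same letters were found on either strand in 54.9% of the 32851 promoter windows of that length, and in 18 of 24 windows of the 22 Hox genes matched (75%). The median number of CpG dinucleotides was 12.5 over the Hox windows, with a range of 2 to 35, and 6 over all windows.

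Hox UMIs were unevenly spread over the clusters (the plot of all Hox genes by cluster). Mean levels over mice were highest in Cluster 13, labelled Unk by the authors, at 937 ± 239 CPM (SD, n = 10 mice), followed by Cluster 2 (labelled astrocytes) at 775 ± 370 (n = 11), Cluster 5 astrocytes at 712 ± 233 (n = 14), fibroblasts at 638 ± 335 (n = 9) and neurons at 548 ± 196 (n = 15). The SDs of these 5 neighbours overlapped. Ependymal markers summed to 2478 CPM in Cluster 13 and to 20.3 CPM in the next cluster. A second set of clusters lay lower, with Cluster 7 astrocytes at 403 ± 113 CPM (n = 15), pericytes and smooth muscle cells at 318 ± 98.4 (n = 15) and oligodendrocyte precursors at 263 ± 74.5 (n = 14). Oligodendrocytes were lower again, at 181 ± 66.7 CPM in Cluster 8 (n = 14) and 176 ± 68.0 in Cluster 4 (n = 15), and endothelial cells had 113 ± 45.1 (n = 15). Schwann cells had 82.2 ± 79.6 CPM (n = 5), the red blood cell cluster 132 ± 44.0 (n = 4) and the immune cluster 68.7 ± 78.6 (n = 10). Microglia, whose precursors come from the yolk sac and not from the neural tube, had the least: 30.6 ± 18.9 CPM in Cluster 6 (n = 14) and 51.9 ± 43.6 in Cluster 10 (n = 14), beside 32.7 ± 35.1 in myeloid cells (n = 5). The level of Cluster 6 was taken as a working background for the other clusters. Its leading member, Hoxb4, differed in share from that of all cells. Hoxb4 gave 20% of the Hox UMIs of Cluster 6 (24 of 120, interval 13.3 to 28.3), against 5.28% of all Hox UMIs. The next members, Hoxa7, Hoxb8, Hoxc8 and Hoxb6, gave 12.5%, 12.5%, 10.8% and 5.83% there. Their shares of all Hox UMIs, 9.27%, 11.2%, 8.95% and 8.07%, lay within the intervals of Cluster 6. How much of the Cluster 6 level came from free RNA was not tested.

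**Figure D1:**
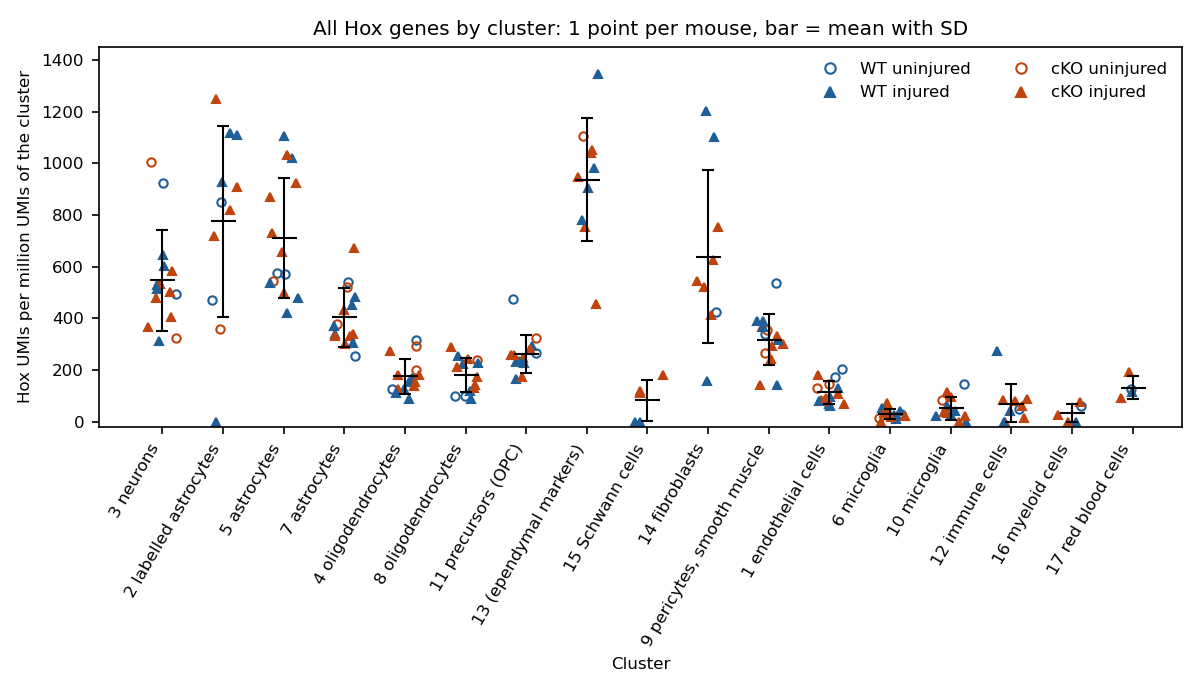
Hox CPM of a cluster, with 1 point for each mouse with at least 10 cells in the cluster (circles uninjured, triangles injured, blue WT, orange cKO) and bars for the mean with the SD. Cluster 13 had the highest mean at 937 and Cluster 6 the lowest at 30.6.

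With each cell thinned to 1000 UMIs, and shallower cells left out, the share of cells with a Hox UMI was 51.7% in Cluster 2, 48.9% in Cluster 13, 46.5% in Cluster 5, 38.7% in neurons, 37.6% in fibroblasts, 30.8% in Cluster 7 and 29.7% in pericytes. It was 24.5% in oligodendrocyte precursors, 23.9% in Cluster 8, 16.9% in Cluster 4 and 9.76% in endothelial cells, against a background of 3.63% in Cluster 6. Before thinning, neurons had 57.3% at a median of 1848 UMIs per cell and Cluster 7 had 57.9% at 2882. Single cells often held several members. Among cells with at least 1000 UMIs, 3 or more Hox genes were seen in 48.1% of fibroblasts, 39.8% of Cluster 13 cells, 29.2% of neurons and 26.1% of Cluster 7 cells, against 0.346% of Cluster 6 cells. Clusters 5 and 2 had 19.6% and 14.3%. These cells were not thinned, so the shares also depend on depth. Their median UMIs were 7148 in fibroblasts and 4332 in Cluster 7, but 1934 in Cluster 5 and 1410 in Cluster 2. The most in 1 cell was 21 members, in Cluster 13. Doublets were not called here, and their part was not tested.

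Which members made up the Hox UMIs differed by cluster (the map of shares by member). Hoxb6 led in neurons (12.9% of 4480 Hox UMIs, 95% Clopper-Pearson interval 11.9 to 13.9), Hoxb8 in Cluster 5 (20.5%, 18.9 to 22.2), Cluster 2 (23.0%, 20.4 to 25.9) and endothelial cells (12.2%, 10.4 to 14.2), and Hoxc4 in Cluster 7 (10.8%, 9.26 to 12.5). Hoxd8 led in both oligodendrocyte clusters, Hoxa7 in Cluster 13 (16.3%, 14.1 to 18.8) and in oligodendrocyte precursors (13.9%, 10.9 to 17.3), Hoxa5 in fibroblasts (12.8%, 10.9 to 14.9), Hoxb4 in pericytes (15.4%, 13.1 to 17.9) and Hoxb3 in Schwann cells (19 of 74 UMIs). Clusters were made from these same counts, so no cluster was tested against another, and the intervals cover counting error only. Hoxd8, Hoxb4, Hoxb2, Hoxa4, Hoxa3, Hoxc6, Hoxd1, Hoxd3 and Hoxd4 lie outside the rule by which genes were to be named (the 8 with the most UMIs, and members of groups 9 to 13 with at least 20), and were chosen after their values were seen.

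**Figure D2:**
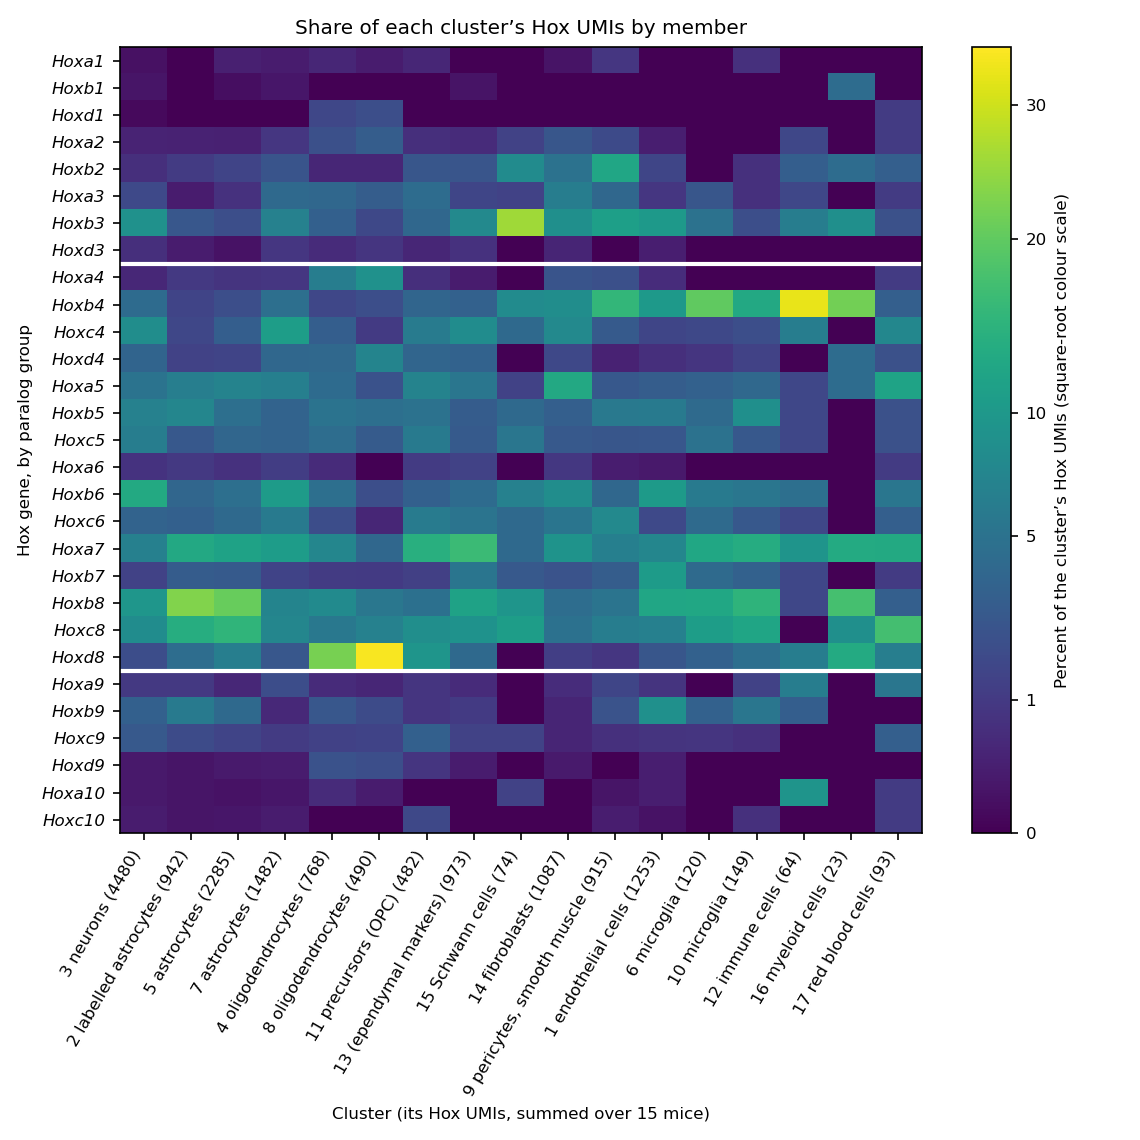
Percent of each cluster's Hox UMIs (columns, with their number of Hox UMIs over 15 mice) given by each of the 29 members with at least 10 UMIs (rows, by paralog group, white lines between groups 1 to 3, 4 to 8 and 9 to 13), on a square-root colour scale. The brightest cells are Hoxd8 in Cluster 8 (34.3%) and Hoxb4 in the immune cluster (32.8%).

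Groups 1 to 3, the genes at the head end of each complex, were most prominent in mural cells and fibroblasts. They gave 29.9% of the Hox UMIs of pericytes and 22.9% of those of fibroblasts, against 12.5% in neurons, 15.3% in Cluster 7 and 4.35% and 4.90% in Clusters 2 and 5. In Schwann cells they gave 27 of 74 UMIs (36.5%, 25.6 to 48.5), but 47 of the 74 came from cKO 7 d replicate 2, and without that mouse the share was 25.9% (11.1 to 46.3) of 27 UMIs, with no Hox UMI in 2 of the 5 mice. Groups 9 to 13 gave 11.01% in endothelial cells, 8.92% in Cluster 2 (7.17 to 10.9), 7.68% in neurons, 3.19% in Cluster 13 and 1.47% in fibroblasts. Without WT uninjured replicate 1, the mouse with the most endothelial Hox UMIs, the endothelial share was 9.68% (7.96 to 11.6). The Hoxd complex gave 46.3% of the Hox UMIs of Cluster 8 and 30.7% of those of Cluster 4, beside 14.5% in oligodendrocyte precursors and 1.20% in pericytes. The Hoxb complex gave 69.8% in endothelial cells, 64.9% in Schwann cells and 58.9% in pericytes, but 19.2% in Cluster 8.

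The astrocyte clusters differed from each other. In Cluster 5, Hoxb8, the member with the most UMIs, ranged from 0 to 315 CPM over 14 mice with a median of 143, and in Cluster 7 it ranged from 8.95 to 129 over 15 mice with a median of 31.3. The ranges overlapped, but within a mouse Cluster 5 was the higher in 12 of 14 (mean 142 ± 88.3 against 38.5 ± 31.7 CPM). Hoxd8 was at 46.3 ± 22.2 CPM in Cluster 5 and 6.11 ± 5.81 in Cluster 7, higher in 13 of 14 mice and equal in the other. Hoxc8 was at 95.2 ± 41.4 against 32.3 ± 19.7 CPM, higher in 13 of 14, so the counted group 8 genes shared this order. Hoxb9 was at 20.1 ± 18.4 against 1.16 ± 1.84 CPM, higher in 9 mice, lower in none and equal in 5. The genes of groups 1 to 3 together had like means, at 50.7 ± 30.9 CPM in Cluster 5 and 56.6 ± 14.2 in Cluster 7, lower in Cluster 5 in 10 of 14 mice, and differed among themselves. Hoxa3 was at 4.05 ± 5.16 against 15.3 ± 10.3 CPM, lower in Cluster 5 in 11 of 14. Hoxb3 had like means (23.8 ± 24.3 against 24.0 ± 13.2), and Hoxb2 was higher in Cluster 5 in 9 of 14 (18.3 ± 23.8 against 9.55 ± 9.53). All Hox genes together were at 712 ± 233 against 395 ± 112 CPM, higher in Cluster 5 in 12 of 14. Without the 4 libraries that share barcodes, Hoxb8, Hoxd8 and Hoxc8 were higher in Cluster 5 in 10 of 10 mice each, and Hoxa3 lower in 9. Cluster 5 also held more oligodendrocyte transcripts: the 5 markers of that list, each detected in both clusters, summed to 13318 CPM in Cluster 5 and 1858 in Cluster 7, and in Cluster 2 to 20945 beside 7769 for the astrocyte markers. In the oligodendrocyte clusters themselves Hoxb8 was at 16.7 ± 17.4 CPM (Cluster 4) and 12.1 ± 16.04 (Cluster 8), and Hoxd8 at 38.7 ± 21.6 and 66.3 ± 31.8. The part of oligodendrocyte RNA in the levels of Cluster 5 was not tested.

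Oligodendrocytes, the myelinating glia, had fewer Hox UMIs than astrocytes in 15 of 15 mice (178 ± 54.3 against 545 ± 109 CPM), but not for every gene. Hoxd8 ranged from 11.6 to 102 CPM in oligodendrocytes, median 44.5, and from 0 to 36.5 in astrocytes, median 23.0. It was higher in oligodendrocytes in 13 of 15 mice (47.3 ± 26.0 against 22.4 ± 11.05). This order of the pooled classes did not hold for every pair of clusters. Without the libraries that share barcodes, mean Hoxd8 was 46.7 CPM in Cluster 5, 36.1 in Cluster 2 and 8.55 in Cluster 7. It was 30.1 in Cluster 4 and 54.1 in Cluster 8 (n = 10 for each). Hoxa4 was also higher in oligodendrocytes than in astrocytes, at 14.8 ± 9.48 against 3.33 ± 3.29 CPM, in 13 of 15. Hoxa5, Hoxb6, Hoxb8 and Hoxc8 were each lower in oligodendrocytes in 15 of 15 mice. Between the oligodendrocyte clusters, Hoxd8 was at 66.3 ± 31.8 CPM in Cluster 8 and 38.7 ± 21.6 in Cluster 4, higher in Cluster 8 in 13 of 14 mice, and its share of the Hox UMIs was 34.3% (30.1 to 38.7) against 22.1% (19.2 to 25.2). Without the libraries that share barcodes the shares were 32.0% and 20.3%. The other Hoxd genes differed in their order. The sparse members Hoxd1 and Hoxd9 had 22 of 24 and 27 of 53 UMIs in oligodendrocytes. They were higher in Cluster 8 than in Cluster 4 in 4 and 3 mice and lower in 5 each. Without the libraries that share barcodes, their means were 2.67 and 4.09 CPM in Cluster 8 and 1.55 and 2.55 in Cluster 4. Such counts are too few to give an order. Hoxd4 was lower in oligodendrocytes than in astrocytes in 12 of 15 mice (11.1 ± 9.04 against 17.5 ± 10.8 CPM), and Hoxd3 in 8, with 2 higher.

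Neurons and astrocytes had like totals, 548 ± 196 and 545 ± 109 CPM, from different members. Hoxb3, whose neural domain in the embryo begins in the hindbrain, ranged from 19.6 to 132 CPM in neurons, median 48.5, and from 0 to 60.0 in astrocytes, median 22.9. It was higher in neurons in 15 of 15 mice (57.0 ± 34.4 against 24.9 ± 16.8), and in 11 of 11 without the libraries that share barcodes. Hoxb5 was higher in neurons in 13 of 15 mice (37.3 ± 16.1 against 22.1 ± 15.5 CPM) and Hoxb6 in 12 (67.8 ± 39.5 against 36.5 ± 12.8). Hoxa7, Hoxc8 and Hoxb2 were each lower in neurons in 13 of 15, Hoxa7 at 36.0 ± 21.4 against 59.7 ± 33.7 CPM. The astrocyte class pools Clusters 2, 5 and 7, and for Hoxc8, Hoxa7 and Hoxb5 the order of the means depended on the cluster. Without the libraries that share barcodes, Hoxc8 had a mean of 57.5 CPM in neurons (n = 11). Its mean was 103 in Cluster 5 and 26.1 in Cluster 7 (n = 10). Hoxa7 was at 42.0, 88.4 and 36.5 CPM in the same 3 clusters, and Hoxb2 at 3.26, 11.3 and 10.7. In Cluster 2 (n = 10) Hoxc8, Hoxa7 and Hoxb2 were at 104, 112 and 9.87 CPM. Hoxb5 was at 35.9 CPM in neurons, against 60.5 in Cluster 2, 33.4 in Cluster 5 and 10.1 in Cluster 7. The Hoxa complex as a whole was lower in neurons in 14 of 15 mice, at 83.1 ± 40.0 against 131 ± 55.5 CPM.

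Among vessel cells, pericytes and smooth muscle cells, the mural cells that wrap small vessels, had more Hox UMIs than endothelial cells in 15 of 15 mice. Hoxb2 ranged from 23.2 to 66.5 CPM in pericytes, median 44.7, and from 0 to 7.68 in endothelial cells, median 0, and the ranges did not overlap. Hoxb4 ranged from 23.7 to 120 CPM, median 51.1, against 3.39 to 21.4, median 11.4, again without overlap. Means were 39.4 ± 13.2 against 1.61 ± 2.24 CPM for Hoxb2 and 54.8 ± 24.8 against 11.5 ± 4.37 for Hoxb4. Hoxb3 was higher in pericytes in 14 of 15 mice (38.2 ± 23.7 against 10.7 ± 6.11) and Hoxc6 in 13 (24.1 ± 17.2 against 2.15 ± 2.25). Genes of higher number were closer: Hoxb8 was at 16.1 ± 13.2 against 14.0 ± 8.95 CPM, higher in 8 of 15, and Hoxb9 at 8.31 ± 11.3 against 11.6 ± 8.09, higher in 4. Without the libraries that share barcodes, Hoxb2, Hoxb3 and Hoxb4 were higher in pericytes in 11 of 11 mice.

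**Figure D3:**
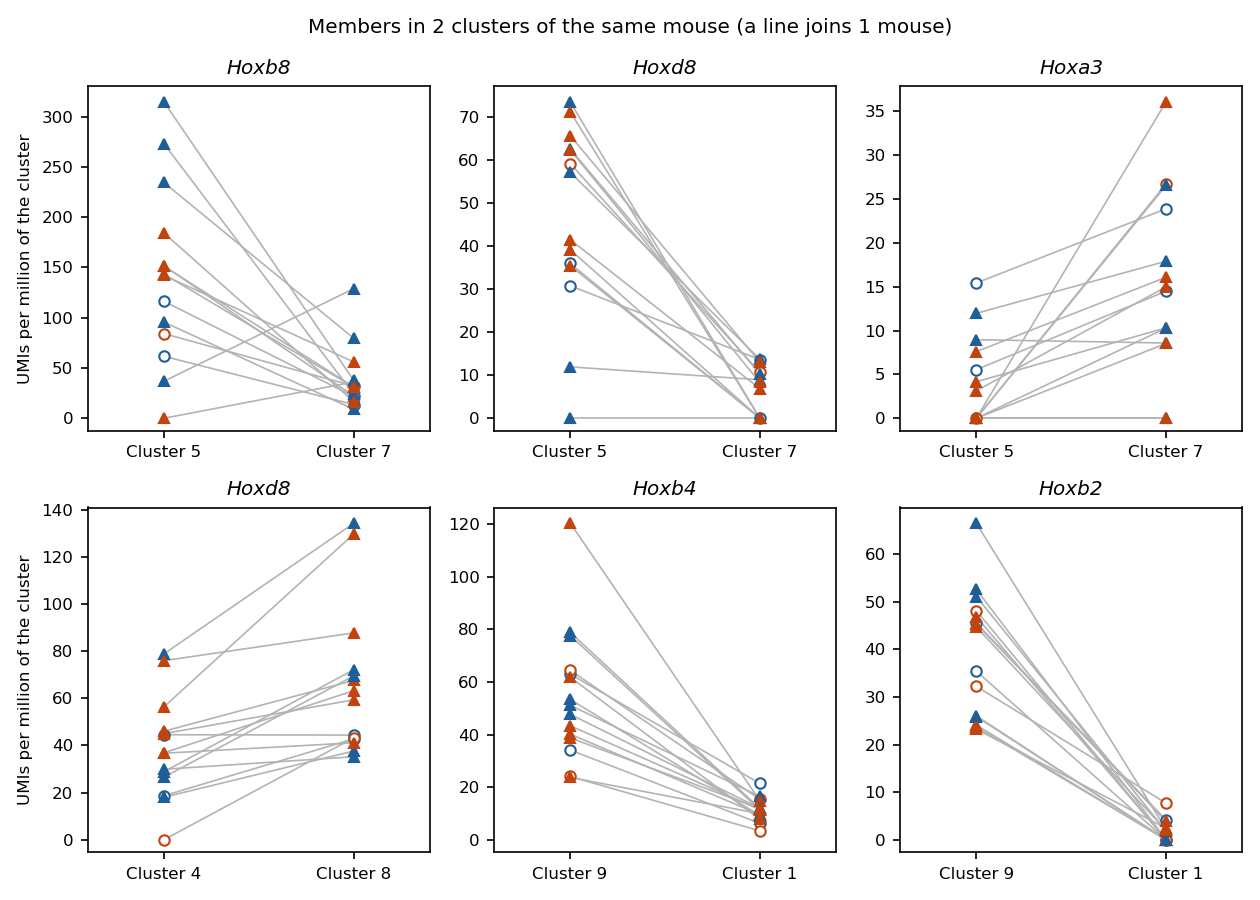
CPM of 5 members in 2 clusters of the same mouse, with a line joining the values of 1 mouse (circles uninjured, triangles injured, blue WT, orange cKO). Hoxb8 and Hoxd8 were higher in Cluster 5 than in Cluster 7 in 12 and 13 of 14 mice, Hoxa3 was lower in 11, Hoxd8 was higher in Cluster 8 than in Cluster 4 in 13 of 14, and Hoxb4 and Hoxb2 were higher in Cluster 9 than in Cluster 1 in 15 of 15.

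Microglia, myeloid cells and the immune cluster had few Hox UMIs, and Hoxb4 was the most counted member in the immune cluster and in Cluster 6. In the immune cluster Hoxb4 had 21 of 64 Hox UMIs (32.8%, 21.6 to 45.7), in 17 of 288 cells of 8 mice. In microglia it had 24 of 120 in Cluster 6 (interval 13.3% to 28.3%) and 19 of 149 in Cluster 10 (12.8%, 7.86 to 19.2). Its mean level was 30.3 ± 28.5 CPM in the immune cluster (n = 10) and 6.97 ± 7.01 in Cluster 6 (n = 14). The 4 Hoxa9 and 6 Hoxa10 UMIs of the immune cluster came from 1 cell.

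Between animals, the share of groups 9 to 13 stood apart in 1 of the 15 mice. They gave 16.96% of the Hox UMIs of WT uninjured replicate 1 (153 of 902, interval 14.6 to 19.6). In the other WT uninjured mouse they gave 8.42%, in the cKO uninjured mice 8.96% and 5.11%, and in the 11 injured mice 4.65% to 7.68%. The highest upper bound among those 14 mice was 11.9%, below the lower bound of the mouse that stood apart. That mouse was also high within its neurons (18.5%, 13.3 to 24.8), its astrocytes (16.8%, 11.9 to 22.7) and its endothelial cells (17.6%, 12.7 to 23.5). Its oligodendrocytes had 8.89% of 90 Hox UMIs, a lower share, but still the highest for that class over 12 mice (mean 5.89 ± 2.78%). Several genes of groups 9 and 10 carried this. Hoxa9 had 39 of its 148 UMIs there, at 12.7 CPM against 1.07 to 4.50 in the other 14 mice. Hoxc10 had 14 of 29 UMIs there, Hoxa10 had 7 of 29, and the one Hoxd10 UMI was there too. Hoxb8 was at 10.4 CPM in this mouse, the lowest of the 15.

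**Figure D4:**
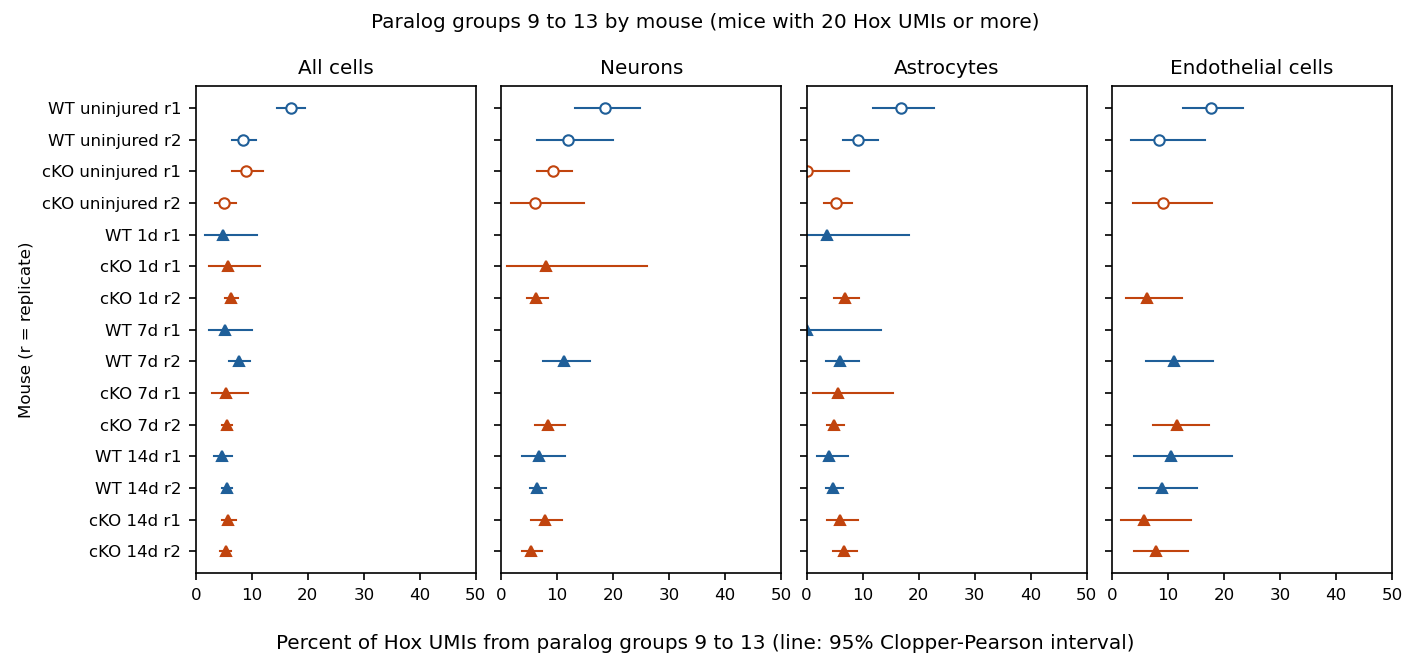
Percent of Hox UMIs from paralog groups 9 to 13 in each mouse with at least 20 Hox UMIs, in all cells, neurons, astrocytes and endothelial cells, with 95% Clopper-Pearson intervals (open circles uninjured, triangles injured, blue WT, orange cKO, r for replicate). In all cells WT uninjured replicate 1 lies at 16.96% and the other mice between 4.65% and 8.96%.

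Groups 1 to 3 gave 6.97% (5.18 to 9.13) of the Hox UMIs of WT uninjured replicate 2, the lowest, and 16.3% (10.2 to 24.0) in cKO 1 d replicate 1, the highest. The mean paralog number of a Hox UMI ran from 5.61 ± 0.19 (SE of counting) in cKO 1 d replicate 1 to 6.54 ± 0.07 in WT uninjured replicate 2. Without the 4 libraries that share barcodes, cKO 14 d replicate 1 had the highest share of groups 1 to 3 at 15.9% (14.0 to 18.0) and the lowest mean paralog number at 5.70 ± 0.06, so mice differed in these measures too. The total was highest in cKO uninjured replicate 1 at 606 CPM (exact 95% Poisson interval 552 to 663), with the other mice at 179 to 391, or 202 to 391 without those 4 libraries. That mouse had 208 cells, with 44.8% of its UMIs from neurons, and had the highest levels of Hoxb3 (69.7 CPM) and Hoxc9 (27.1 CPM). Neurons gave 1.41% to 44.8% and astrocytes 5.44% to 37.7% of the UMIs of a mouse. In sums over all cells, fewer cells of a type and less RNA per cell cannot be told apart.

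The leading members varied widely between animals of 1 condition. Hoxb8 was at 10.4 and 58.6 CPM in the WT uninjured mice and 50.4 and 37.7 in the cKO uninjured mice, and ranged from 13.1 to 48.2 in the 11 injured mice, median 31.2. Hoxa7 was at 26.7, 34.5, 56.8 and 42.3 CPM in the same 4 uninjured mice and at 13.1 to 32.4 after injury, median 26.2. Hoxc8 was at 24.4, 43.5, 62.0 and 46.3 CPM and at 4.50 to 46.9, median 16.8. These 3 genes lay mostly lower after injury, with overlap. Hoxb6 was at 18.2, 17.5, 65.9 and 21.4 CPM uninjured and 8.09 to 30.4 injured, median 20.5. Hoxb3 was at 15.3, 8.03, 69.7 and 11.2 CPM uninjured and 14.6 to 23.4 injured, median 19.5. For both, 1 uninjured mouse, cKO replicate 1, lay far above the rest. Hoxc4 was at 21.5, 9.92, 27.1 and 12.2 CPM uninjured and 1.86 to 24.5 injured, median 13.3. Hoxa5 was at 9.43, 22.2, 38.7 and 18.8 CPM uninjured and 3.00 to 22.8 injured, median 13.9. Hoxb5 was at 12.4, 11.8, 33.6 and 7.13 CPM uninjured and 5.66 to 24.1 injured, median 12.2. The injured mice spanned most of the uninjured values for these 3.

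Of the genes of groups 9 and 10, Hoxa9 was at 12.7, 2.36, 3.87 and 3.57 CPM uninjured and 1.07 to 4.50 injured, median 2.28. Hoxb9 was at 14.6, 17.9, 20.7 and 7.13 CPM uninjured and 1.50 to 14.8 injured, median 6.51. Hoxc9 was at 12.03, 4.72, 27.1 and 2.55 CPM uninjured and 1.62 to 7.06 injured, median 3.73. Uninjured and injured mice overlapped for all 3 of these group 9 genes. Hoxd9 was at 3.25, 0.945, 2.58 and 1.53 CPM uninjured and at most 2.43 injured. Hoxa10 had 2.28, 0.945, 0 and 0.509 CPM and at most 0.888 injured, and Hoxc10 had 4.55 CPM in WT replicate 1, 0 in the other 3 uninjured mice and at most 1.54 injured. These last 3 genes rest on 29 to 53 UMIs over all mice.

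**Figure D5:**
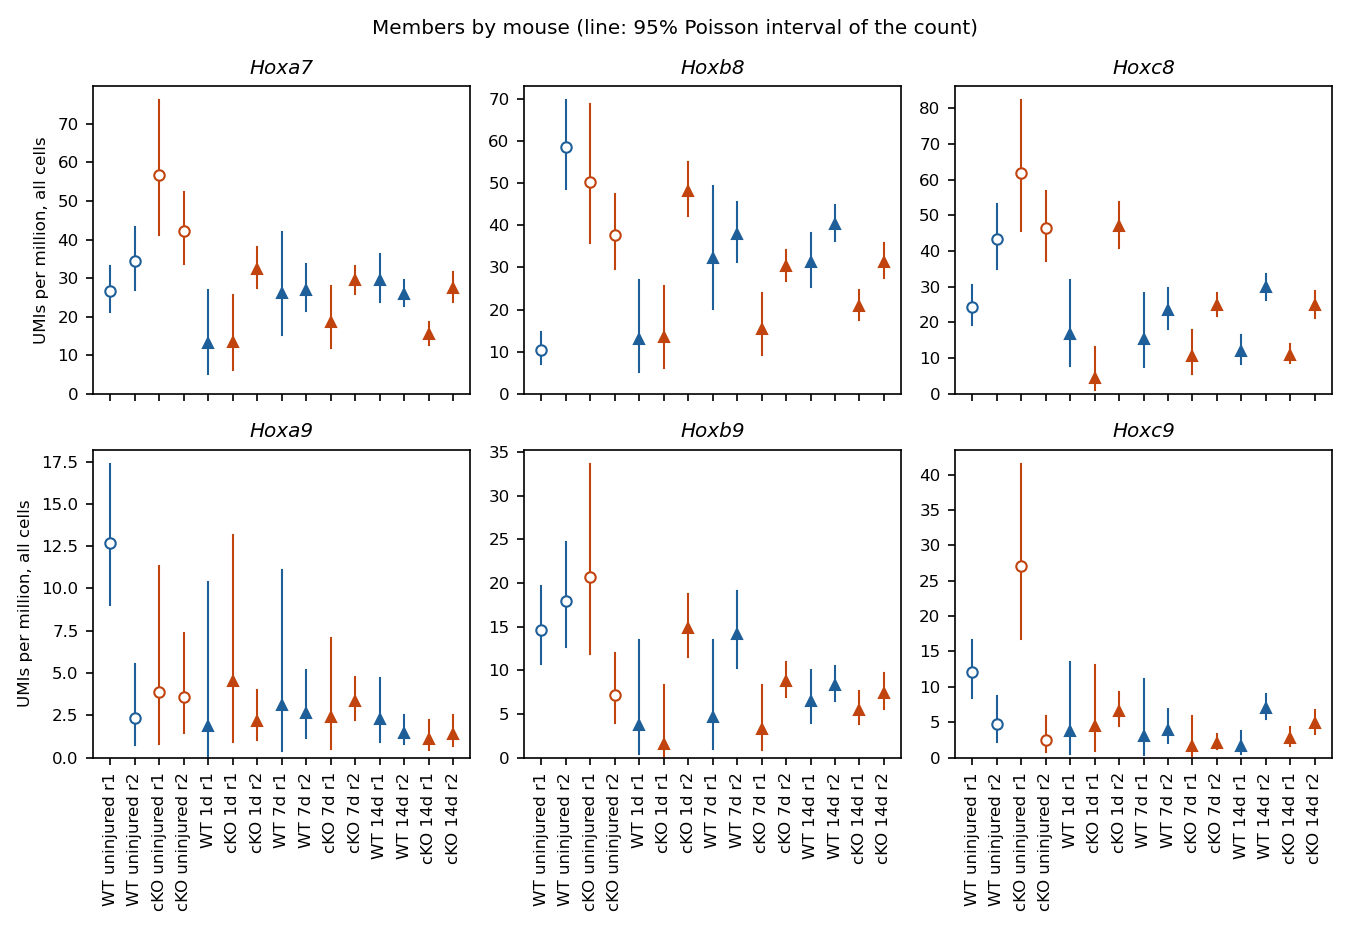
CPM over all cells of 6 members in each of the 15 mice (open circles uninjured, triangles injured, blue WT, orange cKO, lines for the 95% Poisson interval of the count, r for replicate). Hoxa9 was at 12.7 in WT uninjured replicate 1 and at 1.07 to 4.50 in the other mice.

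Injury was tested as the mean over the 3 times after the lesion against uninjured, over both genotypes, with edgeR's quasi-likelihood test on UMIs summed per mouse and Benjamini-Hochberg adjustment over all genes tested. No Hox gene passed an adjusted p of 0.05 in all cells, astrocytes, oligodendrocytes, neurons, endothelial cells or pericytes, and DESeq2 called 0 as well. Over all genes, 0% passed in each class except neurons, where 0.0586% did. Low counts removed members before testing, which left 24 in all cells, 19 in astrocytes, 15 in neurons, 10 in endothelial cells, 6 in oligodendrocytes and 2 in pericytes. At an unadjusted p under 0.05, 10 of 24 passed in all cells against 9.82% of all genes, 5 of 15 in neurons against 8.66%, 4 of 10 in endothelial cells against 6.67%, 1 of 19 in astrocytes against 5.05%, 1 of 6 in oligodendrocytes against 6.03% and 0 of 2 in pericytes against 3.93%. In all cells, 21 of 24 tested members had a lower estimate after injury (87.5%, against 54.4% of all genes), with a median log2 fold change of -0.72 against -0.04 over all genes. Within astrocytes and neurons the share was near that of all genes, at 68.4% against 63.4% and 80% against 78.1%. It was 80% against 57.5% in endothelial cells, 66.7% against 52.1% in oligodendrocytes and 50% against 54.1% in pericytes.

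The estimates with the smallest p were of genes of groups 7 to 9. In all cells the log2 fold change was -1.03 ± 0.27 (SE) for Hoxa7 (edgeR adjusted p = 0.200) and -1.33 ± 0.45 for Hoxc8 (edgeR adjusted p = 0.368). It was -1.61 ± 0.49 for Hoxc9 and -1.48 ± 0.46 for Hoxa9 (edgeR adjusted p = 0.310 and 0.318). In neurons Hoxc8 was at 142 and 54.4 CPM in the WT and 115 and 54.1 in the cKO uninjured mice and at 0 to 64.9 in 11 injured mice, median 28.2, with a log2 fold change of -2.55 ± 0.65 (edgeR adjusted p = 0.118). With the replicate number, which is the authors' batch, as a block, edgeR gave Hoxc8 in neurons a log2 fold change of -2.60 ± 0.66 and an adjusted p of 0.0258, past the threshold. Hoxc9 in neurons was at 108 and 0 CPM in the WT and 54.8 and 4.92 in the cKO uninjured mice and at 0 to 21.4 after injury, median 9.91, and its estimate of -2.88 ± 0.95 (edgeR adjusted p = 0.321) turned to 1.10 without WT uninjured replicate 1. The median log2 fold change over all genes in neurons was -0.82. In endothelial cells Hoxa7 was at 18.5, 12.5, 15.4 and 16.95 CPM in the 4 uninjured mice and at 0 to 14.4 after injury, median 5.12 (log2 fold change -2.43 ± 0.69, edgeR adjusted p = 0.743). Hoxd8 in oligodendrocytes went the other way, from 44.5, 28.2, 11.6 and 16.02 CPM uninjured to 22.8 to 102 after injury, median 48.0 (log2 fold change 0.96 ± 0.41, edgeR adjusted p = 0.787).

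The genotype was tested as cKO minus WT over the 3 time points after injury, and as the difference between that contrast and the one in uninjured mice. No Hox gene passed the adjusted threshold in any class in either contrast, by edgeR or DESeq2, and 0% of all genes did by edgeR. At an unadjusted edgeR p under 0.05, 1 of 24 members passed in all cells after injury against 2.49% of all genes, and 0 in astrocytes (2.13%), oligodendrocytes (2.12%), neurons (3.84%), endothelial cells (2.67%) and pericytes (3.27%). The 1 gene was Hoxa3 with a log2 fold change of 1.00 ± 0.46 (edgeR adjusted p = 1.00). For the difference between contrasts, 1 of 24 passed in all cells (background 3.9%), 1 of 19 in astrocytes (2.07%), 2 of 15 in neurons (3.87%), and 0 in oligodendrocytes (4.6%), endothelial cells (3.1%) and pericytes (3.68%). In all cells this was Hoxb3, at -1.53 ± 0.64 on the log2 scale (edgeR adjusted p = 1.00), the gene that was high in cKO uninjured replicate 1. Over all genes in neurons the median log2 fold change by genotype was 2.01, with WT at 1 d held by 1 mouse with 18 neurons, and the members' median there was 1.96.

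Genes that act with or on the Hox complexes were counted in the same fits, and none was called by edgeR in any class or contrast. At an unadjusted p under 0.05, 1 of 10 Hox cofactors passed in neurons for injury (8.66% of all genes) and 1 of 10 there for genotype after injury (3.84%), 1 of 6 in endothelial cells for injury (6.67%), and none in the other fits. Of 21 chromatin regulators, Jarid2 (15981 UMIs), a Polycomb partner, and Kmt2a (10668), the Trithorax homologue, had the most and were highest in neurons, at 721 and 400 CPM. At most 2 passed, of 13 tested in pericytes, for genotype after injury (3.27% of all genes) and for the difference between contrasts (3.68%). Of 11 upstream signals, the retinoic acid receptors Rarb (1992) and Rarg (1268) had the most and were highest in fibroblasts, and 0 of 6 tested passed. Of the RNAs transcribed from within the complexes, Hoxb3os (1119) was highest in pericytes at 123 CPM, where Hoxb2, Hoxb3 and Hoxb4 also led, and Hotairm1 (1007) in Cluster 13 at 66.0 CPM, and 0 of 9 tested passed. Of the spinal transcription factors used to check the tissue, at most 4 of 12 tested passed an unadjusted p under 0.05, in all cells for injury, where 9.82% of all genes did, and of the forebrain genes 1 could be tested and did not.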

How the data were processed

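Cells dissociated from the spinal cords of 16 mice had been sequenced as 10x 3′ libraries. Reads were counted by the authors with Cell Ranger on mm10 (GRCm38). They kept cells with under 25% mitochondrial UMIs and over 200 genes, clustered them with Seurat (R 4.1.2) after Harmony, and deposited raw UMI counts with a cell table of clusters, batches and percent mitochondrial and haemoglobin UMIs. Whether doublets had been removed is not given in the sources used here.

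The members (symbols Hoxa, Hoxb, Hoxc or Hoxd plus a number), gene lists and tests were chosen with earlier results of these data known. Named were the 8 members with the most UMIs, members of groups 9 to 13 with at least 20, any called by edgeR, and the 2 genes with the most UMIs of each list beside them. A mouse entered with at least 50 cells, and a cluster or class with at least 10. CPM are UMIs per 1000000 UMIs of the same cells. Intervals are exact Poisson (levels) or Clopper-Pearson (shares) at 95% and cover counting error only. UMIs summed per mouse and class (astrocytes are Clusters 2, 5 and 7, oligodendrocytes 4 and 8) were tested on all genes with edgeR 4.0.16 in R 4.3.3 (TMM, filterByExpr, robust quasi-likelihood fit over all groups), after tests on simulated data. Alternatives were DESeq2 1.42.0, other size factors, filters, cell sets and conditions, the replicate block, and leaving out mice. The batch equals the replicate number in 16 of 16 mice, so the numbers pair mice by batch. Deviations of mice with the same number had a median correlation of 0.13 over 21 pairs of conditions in all cells (11 over 0.1) and 0.078 in astrocytes (10 over 0.1). Python 3.11.15 with numpy 2.4.6, pandas 2.3.3, scipy 1.17.1 and matplotlib 3.10.9 was used. Promoters are from RefSeq. Levels of single Hox cofactors are not reported here.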

Additional observations from a re-analysis of the deposited data

How the results depend on the processing

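The count of Hox genes called by edgeR, 0 in each of the 18 fits, stayed at 0 in 390 of 396 alternatives. In all cells, injured against uninjured, 4 were called with no filter on low counts (Hoxa7, Hoxc5, Hoxc9 and Hoxc8, log2 fold changes -1.03, -1.29, -1.59 and -1.33). In neurons, injured against uninjured, 1 was called with the replicate block (Hoxc8, adjusted p = 0.0258) and 2 with conditions taken from cell names (Hoxc9 and Hoxc8). Leaving out 1 mouse gave 0 to 1 there: 1 without WT uninjured replicate 2 (Hoxc9, log2 fold change -3.37) and 1 without cKO 1 d replicate 2 (Hoxc8, -3.83). For the genotype by injury contrast in neurons, 1 was called with conditions taken from cell names (Hoxc4). The replicate block changed no other call. With 1 mouse left out, the log2 fold change of Hoxc9 in neurons ranged from -3.87 to 1.10, reversed without WT uninjured replicate 1, a fit whose SE is too large to read, as neurons of WT uninjured replicate 2 held 0 Hoxc9 UMIs. The causes of the other changes were not tested. Over the alternatives the adjusted p of Hoxc8 in neurons ranged from 0.0101 to 0.839 and that of Hoxa7 in all cells from 0.0119 to 1.00. Of the log2 fold changes of the genes tested by name, 232 alternatives kept direction and side of the threshold and 8 passed it.

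Hox levels by cluster moved by less than 1 SD over mice in 270 of 270 alternatives, among them pooled UMIs and the set without the 4 libraries that share barcodes. The fits on that set had no WT mouse at 1 d and a single mouse of each genotype at 7 d. Their genotype contrasts covered 7 d and 14 d only, and their injury contrast averaged unlike times in WT and cKO, so they do not repeat the main contrasts. Thinning to 500 UMIs lowered the share of cells with a Hox UMI, since fewer UMIs were drawn: 28.7% in Cluster 5, 26.9% in Cluster 13, 24.7% in Cluster 2, 22.5% in fibroblasts, 21.9% in neurons, 15.2% in Cluster 7, 13.9% in both Cluster 8 and the precursors, 12.9% in pericytes, 8.76% in Cluster 4, 5.91% in Schwann cells, 1.87% in Cluster 6 and 0% in myeloid cells. With neurons, astrocytes and oligodendrocytes alone, the share of groups 9 to 13 in WT 7 d replicate 1 was 0%, on 44 Hox UMIs. Depth limited the sparse members most: genes with under 30 UMIs over 15 mice allow no comparison between conditions.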
